A study of Homo sapiens with 6 samples.

Results

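The erased windows are 12454 stretches of 1 kb on the autosomes of H9, a long-established line of human embryonic stem cells, that were highly methylated in Conventional cells and nearly free of methylation in Reset cells. They were selected on the measured values themselves: a window needed at least 30 calls in each of 6 whole-genome bisulfite libraries, a mean methylation level over 80% in the 3 Conventional libraries and a mean level under 10% in the 3 Reset libraries. A call is the state of 1 cytosine of a CpG in 1 read, and levels are given as methylated calls in percent of all calls. Of 2881044 autosomal windows, 536543 (18.6%) had the required calls, and 444396 of these were over 80% in Conventional. The erased windows made up 2.8% of the windows over 80%, and the other 431942 serve as the comparison below. Because the rule used the difference between Conventional and Reset, that difference is described in the erased windows and not tested.

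Conventional cells (3 libraries) were H9 grown on mouse embryonic fibroblast feeders in medium with 20% KSR, a serum replacement, and 10 ng/ml bFGF. Reset cells (3 libraries) were derived from H9 transfected with inducible NANOG and KLF2 transgenes, which were switched on with 1 μM doxycycline (DOX) and in which DOX was later withdrawn. They were then kept in t2iL+Gö, which holds the inhibitors CHIR99021 (1 μM), PD0325901 (1 μM) and Gö6983 (5 μM) with human LIF. Both were kept on such feeders and at 5% oxygen. Only 1 cell line was sequenced, so the values describe H9. The Reset libraries were shallower, with 70329213 to 80199615 calls against 92023996 to 98004161 in Conventional. The medium, the transgenes and the cell state changed together and cannot be told apart.

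DNA methylation in mammals sits mostly on the cytosines of CpG dinucleotides, where DNMT1 copies it after replication and DNMT3A and DNMT3B add it anew. Over most of the genome CpGs are sparse and methylated, whereas CpG islands, dense in CpGs, often cover gene promoters and are mostly free of methylation. Promoters of germline genes and one parental copy of imprinted control regions are known exceptions, in which dense CpGs carry methylation. Naive pluripotent cells of the early embryo are known for low methylation genome wide.

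The following stretches of 240 bases are given because they come from erased windows of the kinds described below, namely promoters of genes linked to naive pluripotency and germ cells, imprinted genes, pericentromeric repeats and the largest falls. Each is the plus strand of GRCh37 and the CpGs are in capitals. Calls are summed over the 3 libraries of a group, and these stretches lie inside windows picked for their values.
DPPA5 coding exon, chr6:74063513-74063752: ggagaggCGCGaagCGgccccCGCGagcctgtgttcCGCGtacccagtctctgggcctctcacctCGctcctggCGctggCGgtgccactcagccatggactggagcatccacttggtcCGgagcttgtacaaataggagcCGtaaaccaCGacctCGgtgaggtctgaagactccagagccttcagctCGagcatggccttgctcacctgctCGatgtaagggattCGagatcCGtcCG
KHDC3L coding exon and its surroundings, chr6:74072659-74072898: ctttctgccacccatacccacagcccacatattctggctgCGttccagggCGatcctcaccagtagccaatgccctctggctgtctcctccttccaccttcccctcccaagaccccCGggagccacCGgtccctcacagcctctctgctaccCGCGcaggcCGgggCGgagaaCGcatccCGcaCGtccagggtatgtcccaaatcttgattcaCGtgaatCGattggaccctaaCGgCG
upstream of BRDT, chr1:92414644-92414883: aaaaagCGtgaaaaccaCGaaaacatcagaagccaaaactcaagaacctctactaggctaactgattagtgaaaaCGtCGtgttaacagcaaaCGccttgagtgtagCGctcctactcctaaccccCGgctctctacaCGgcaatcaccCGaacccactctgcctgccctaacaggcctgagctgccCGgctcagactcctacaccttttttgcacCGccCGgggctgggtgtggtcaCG
MKRN3 coding exon, chr15:23811173-23811412: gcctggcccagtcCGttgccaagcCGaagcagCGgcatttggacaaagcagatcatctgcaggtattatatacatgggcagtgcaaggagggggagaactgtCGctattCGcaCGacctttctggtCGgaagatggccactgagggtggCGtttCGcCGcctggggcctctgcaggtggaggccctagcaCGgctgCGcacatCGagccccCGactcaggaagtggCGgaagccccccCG
PEG3 intron, chr19:57351703-57351942: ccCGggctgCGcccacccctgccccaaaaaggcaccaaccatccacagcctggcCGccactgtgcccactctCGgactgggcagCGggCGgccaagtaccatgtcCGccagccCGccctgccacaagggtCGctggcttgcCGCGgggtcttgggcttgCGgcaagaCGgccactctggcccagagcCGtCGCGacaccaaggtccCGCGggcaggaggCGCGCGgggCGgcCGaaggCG
between genes on chromosome 2, chr2:83745294-83745533: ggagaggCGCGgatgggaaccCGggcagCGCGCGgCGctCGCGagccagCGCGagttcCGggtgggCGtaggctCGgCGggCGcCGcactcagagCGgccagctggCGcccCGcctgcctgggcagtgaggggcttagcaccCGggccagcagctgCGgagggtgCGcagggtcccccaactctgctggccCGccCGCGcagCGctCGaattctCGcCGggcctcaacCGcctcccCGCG
ZSCAN1 intron, chr19:58545532-58545771: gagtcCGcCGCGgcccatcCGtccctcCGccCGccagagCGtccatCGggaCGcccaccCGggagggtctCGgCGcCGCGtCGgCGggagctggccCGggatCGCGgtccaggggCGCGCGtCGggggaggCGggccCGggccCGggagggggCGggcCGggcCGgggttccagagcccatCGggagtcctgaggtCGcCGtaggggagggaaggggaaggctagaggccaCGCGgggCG
repeat beside the chromosome 16 centromere, chr16:46397265-46397504: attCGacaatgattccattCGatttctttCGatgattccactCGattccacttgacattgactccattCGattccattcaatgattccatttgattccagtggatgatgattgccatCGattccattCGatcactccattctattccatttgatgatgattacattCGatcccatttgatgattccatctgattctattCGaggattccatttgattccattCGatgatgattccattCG

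The DPPA5 stretch holds 19 CpGs and had 82 methylated of 85 calls in Conventional and 0 of 111 in Reset. The KHDC3L stretch had 129 of 130 methylated calls in Conventional and 3 of 100 in Reset. The BRDT stretch had 98 of 105 in Conventional and 0 of 153 in Reset, and the PEG3 stretch had 142 of 153 in Conventional and 1 of 156 in Reset. The stretch between genes on chromosome 2, with 33 CpGs, went from 111 of 111 to 0 of 231. The MKRN3 stretch had 79 of 82 and then 1 of 133, and the ZSCAN1 stretch 335 of 343 and then 0 of 109. The repeat on chromosome 16, in which the letters ATTCC recur, had 152 of 181 in Conventional and 0 of 138 in Reset. Outside the repeat nearly every Conventional call was methylated, in the repeat most were, and in Reset nearly none was in any of the stretches printed. Stretches not printed were not all as low. In Reset that of SYCP2 had 27 of 61 methylated calls and that of ARGFX 13 of 87.

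Over the erased windows the Conventional libraries had mean levels of 90.5%, 90.5% and 90.4%, and the Reset libraries 6.16%, 6.65% and 6.53%. The group means were 90.5% ± 0.0593 and 6.45% ± 0.255 (SD, n = 3 libraries). The other windows over 80% had 91.9% in Conventional and still 38.1% ± 0.633 in Reset. The erased windows were the low tail of a broad distribution rather than a separate peak. Of the erased windows, 8954 lay between 5 and 10% in Reset and 3500 under 5%, of which 353 were under 1%. In 70 windows no methylated call was seen in any Reset library. All 3 Reset libraries were under 10% in 6050 windows, and all 3 Conventional libraries over 80% in 10558. The summed calls per erased window had a median of 168 in Conventional and 144 in Reset. The 3 windows just inside the Reset threshold all had 9.999% (chromosomes 6, 12 and 18), and the 3 just outside it had 10.000, 10.000 and 10.001% (chromosomes 8, 10 and 2).

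**Figure D1:**
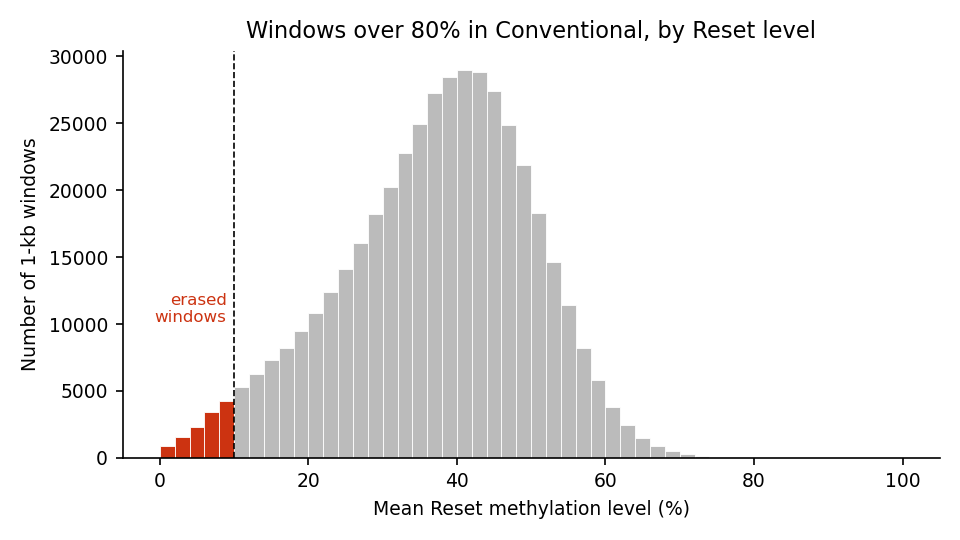
Number of 1-kb windows (y axis) by mean methylation level in the 3 Reset libraries (x axis, in bins of 2%), for the 444396 windows over 80% in Conventional. The 12454 erased windows, in red left of the dashed line at 10%, form the lower tail of 1 broad distribution.

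Because the values that chose the windows cannot also check them, the choice was repeated with each replicate number left out, and the level was read in the Reset library that had not been used. That library had mean levels of 8.34%, 9.24% and 9.24% when Reset replicate 1, 2 or 3 was the one left out, against 6.31%, 6.31% and 6.33% in the 2 libraries used. It was under 10% itself in 66%, 60.4% and 60.1% of the windows, compared with 2.24%, 1.78% and 1.89% of the other windows over 80%, whose means were 37.3%, 38.3% and 38.6%. The low level was thus seen in libraries the choice did not use, with the left-out value 2.03 to 2.93 points higher. Of the windows so chosen that were GGAAT-rich, a satellite repeat described below, 96.3 to 98.3% were under 10% in the left-out library. The share was 76.8 to 81.3% for chosen windows with 25 or more CpGs (CpG-rich) and 53.5 to 60.9% for those under 12 CpGs (CpG-poor). Calls per window also differed between these classes. Erased CpG-poor windows had a median of 9 CpGs and 12.5 Reset calls per CpG, CpG-rich ones 33 CpGs and 7.75 calls. How far the number of calls sets the order of these shares was not tested. With 1 library left out of the rule altogether, 12663 to 19239 windows met it, the most without Reset replicate 3, the shallowest library.

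The share of methylated windows that was erased was lowest at middle CpG density and higher at both ends. Of windows with 5 to 7 CpGs 9.77% were erased, of those with 15 to 19 CpGs 1.67%, and of those with 60 or more 9.27%. The 2 ends differed in the median Reset level of all their windows over 80%. It was 27.9% at 5 to 7 CpGs, 39.2% at 15 to 19 and 46.1% at 60 or more. By GC content the share fell from 12.9% of windows under 35% GC to 1.33% of those at 55% or more. By the ratio of observed to expected CpGs, which is high where CpGs have been kept, it rose from 1.32% below 0.2 to 18.6% above 0.65. GGAAT-rich windows were not set aside in these shares. Without them and without windows that had a low neighbour in Conventional (described below), the share above 0.65 was 11.8% (573 of 4855). The share without GGAAT-rich windows alone was not computed. The erased windows thus held 4104 CpG-poor, 5562 middle and 2788 CpG-rich members. CpG-poor members had a median GC content of 35.8% (39.3% in the other CpG-poor windows) and lay a median of 181 kb from the nearest coding gene start (59.6 kb). CpG-rich members had a median observed to expected ratio of 0.573 (0.435 in the other CpG-rich windows) and lay 12.7 kb from a start (26.7 kb). Middle members lay 37.6 kb from a start (39.3 kb). No test was run over windows, which share chromosomes and are not replicates.

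**Figure D2:**
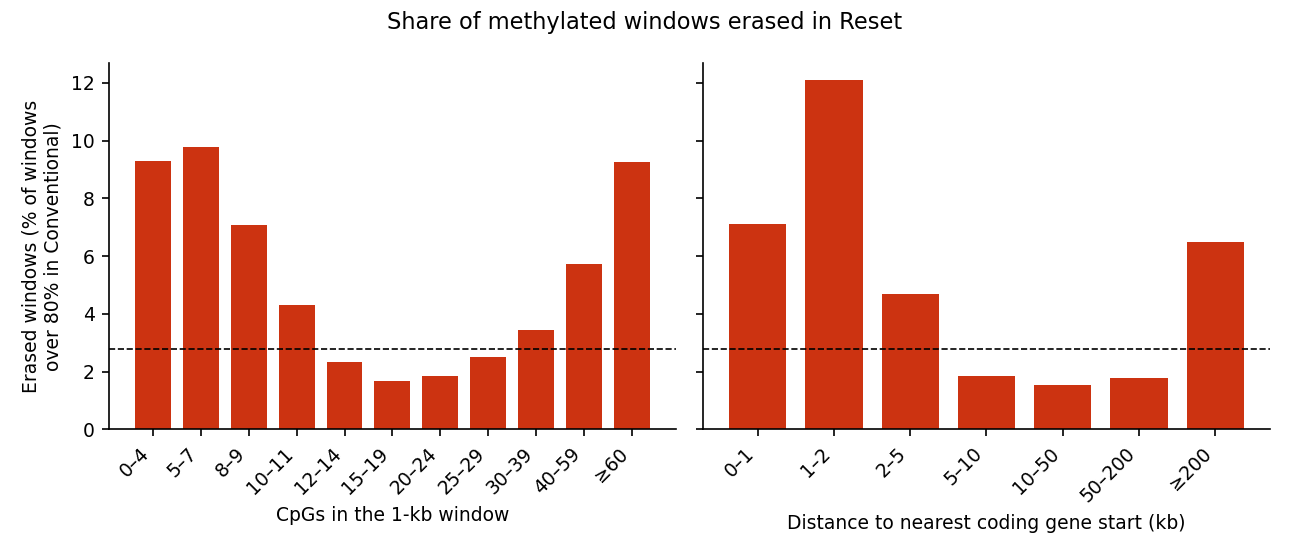
Erased windows as a percentage of the windows over 80% in Conventional (y axis), by CpGs per window (left) and by distance in kb to the nearest coding gene start (right), with the overall 2.8% as a dashed line. The share is above 9% at both ends of the CpG range, peaks at 12.1% 1 to 2 kb from a start and is 6.48% at 200 kb or more; the leftmost bar (0 to 4 CpGs) rests on 43 windows.

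Distance to genes followed the same split. The share erased was 7.11% within 1 kb of a coding start, 12.1% at 1 to 2 kb, 1.54% at 10 to 50 kb and 6.48% at 200 kb or more. Windows 1 to 2 kb from a start often border a CpG island. Of windows with a neighbour within 2 kb that was under 20% in Conventional, 10.8% (1953 of 18126) were erased, against 2.46% of the rest. Such a neighbour was present for 15.7% of erased windows, for 26.3% of CpG-rich members and for 56.3% of members at coding promoters, compared with 3.74%, 5.14% and 36.6% of the other windows of each kind. Of CpG-poor members 5.75% had one, against 2.64% of the other CpG-poor windows.

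The second setting was a low level over the wider region. For each window the Reset level of non-erased windows 2 to 5 kb away was averaged (at least 3 of them, with at least 10 calls in every library). Flanking windows with 30 or more calls had themselves been put to the rule and were counted because they did not meet it, so these levels are not fully independent of it. Where this was under 10%, 39.1% of windows over 80% were erased, where it was 20 to 30% the share was 2.97%, and at 40% or more it was 0.676%. Flanks under 20% in Reset were found for 54.4% of erased windows and 7.9% of the others. For CpG-poor members this was 79%, against 13.4% of the other CpG-poor windows, for middle members 50%, against 7.43%, and for CpG-rich members 26.5%, against 4.7%, so that in each class the share was higher by erased windows. Flanks at 30% or more in Reset were found for 43.6% of CpG-rich members (80.9% of the other CpG-rich windows) and for 7.49% of CpG-poor members (63.2%), and these members were local dips. Counted once each in this order, 2.53% of erased windows were GGAAT-rich and 15.7% had a neighbour under 20% in Conventional. An observed to expected CpG ratio over 0.65 added 4.6%, and Reset flanks under 20% added 44.6%. The remaining 32.5% (4053 windows) were in none of these classes, and 1.05% of all such windows over 80% were erased.

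The same was seen per library. Windows 2 to 5 kb from an erased window had 22.8% ± 0.541 in Reset, and those by the other windows 33.7% ± 0.624 (SD, n = 3). In Conventional they had 84.4% ± 0.0723 and 87.5% ± 0.0769. The erased-minus-other difference was 7.85 points lower in Reset than in Conventional, and the 3 Reset libraries did not overlap the 3 Conventional ones (two-sided exact permutation test, p = 0.1, the smallest 3 against 3 allow). The difference between groups was 15.5 points by CpG-poor members (16.4% against 32.9% in Reset) and 2.04 points by CpG-rich ones (29.1% against 36.4%). This contrast of CpG-poor and CpG-rich flanks was -13.5 points in Reset relative to Conventional, again with no overlap between the libraries (exact permutation test, p = 0.1). The erased windows were picked by their levels in these same libraries, so both tests depend on the selection and add no separate support. The size depended on which flanking windows were counted. With at least 30 calls in every library, where CpG-poor flanks drop out, the Reset levels were 26% and 35.7% but the Conventional levels also differed, at 75.5% and 84%, and the group difference was -1.22 points, or -4.31 points when erased windows were kept among these flanks, a setting chosen after seeing the data. With flanking windows over 80% in Conventional alone it was -10.2 points.

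**Figure D3:**
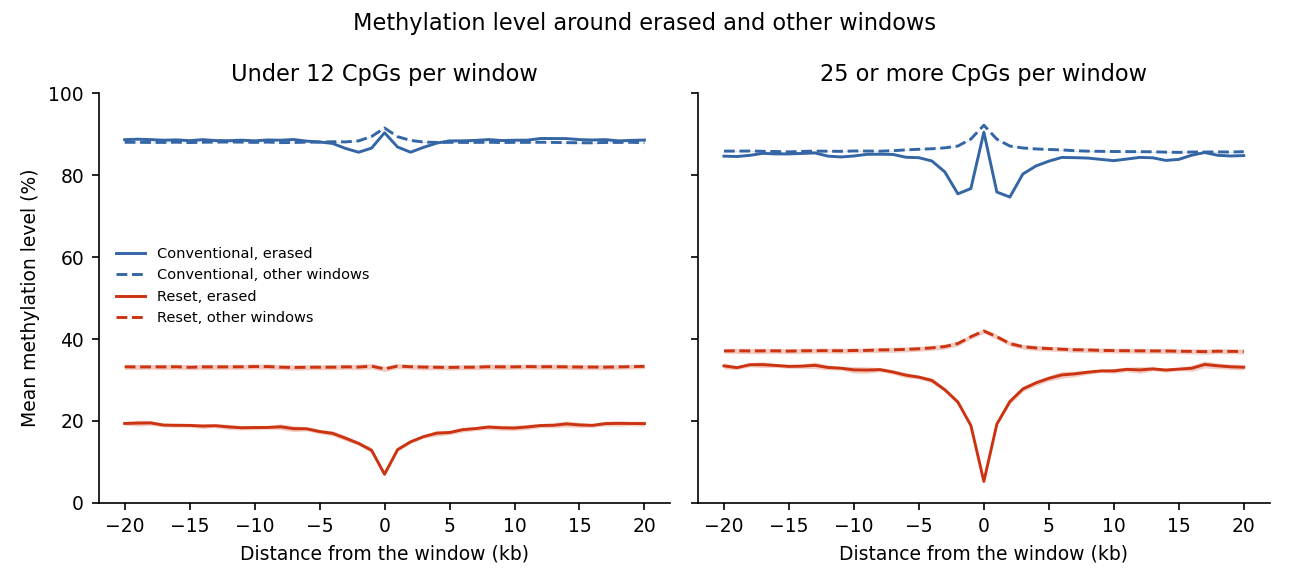
Mean methylation level (y axis, %) of windows up to 20 kb (x axis) from erased windows (solid) and from the other windows over 80% (dashed) in Conventional (blue) and Reset (red), for CpG-poor (left) and CpG-rich (right) windows, with bands of 1 SD over 3 libraries that are mostly thinner than the lines. Around CpG-poor erased windows the Reset level stays under 20% across the whole span, while around CpG-rich ones it climbs back to over 30% within 10 kb and Conventional dips on both sides; the value at 0 kb is fixed by the selection.

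Sequencing depth in the erased windows was also compared. They had 1.25 ± 0.0109 times the calls per CpG of the other windows in Conventional and 1.31 ± 0.0489 times in Reset (SD, n = 3), a difference of 0.0588 between the groups (exact permutation p = 0.2, where 3 against 3 cannot go below 0.1 and so could not pass 0.05). These ratios include the GGAAT-rich windows described below, which had 4.6 to 5.02 times the calls per CpG of the others across the libraries. Without GGAAT-rich windows the difference between the groups was 0.0483 (exact permutation p = 0.4). Within classes of CpG number the ratios were 1.17 and 1.2 (exact permutation p = 0.4). With windows chosen at 10 or more calls the sign turned, and the difference of Reset minus Conventional was -0.0684 (exact permutation p = 0.1). The rule itself set a minimum of calls in every library, so these depth ratios and their tests depend on the selection. They cannot tell whether depth differed apart from it. Levels on the 2 strands differed by at most 0.125 points in any library.

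A satellite repeat was erased nearly throughout. GGAAT is the unit of the human satellite II and III repeats, which form arrays beside centromeres. Of windows over 80% with 40 or more copies of it, counted on both strands and up to 110 per window, 315 of 340 were erased (92.6%). Without them the overall share was 2.73%. On chromosome 10 the share fell from 2.48% to 1.93% without them, and on chromosome 16 from 2.44% to 2.08%. They had 4.6 to 4.66 times the calls per CpG of the other windows in Conventional and 4.78 to 5.02 times in Reset, and whether reads of copies missing from the assembly were counted there was not tested. The group was chosen after its values had been seen.

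Erased windows clustered. Where the next window was also tested and over 80%, it was erased in 1213 of 3299 cases beside an erased window (36.8%, and 32.7% without GGAAT-rich windows), against 1.24% beside the others. Joined across gaps of at most 1 window they formed 10872 runs, of which 9832 were single windows. Of the 10 longest runs, 8 were GGAAT-rich and lay between genes beside the centromeres of chromosomes 2, 10 and 16. The longest spanned 41 kb (chr2:89830001-89871000) with 31 erased windows, at 85.3, 84.3 and 84.1% in Conventional and 4.94, 4.97 and 5.04% in Reset.

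The other 2 of the 10 were the run at NLRP7 and NLRP2 and a run on chromosome 11 (chr11:43169001-43183000) over the pseudogene HNRNPKP3. NLRP7 encodes a cytoplasmic protein of the oocyte and early embryo, and maternal mutations in it cause recurrent hydatidiform moles. The run spanned chr19:55450001-55466000 with 14 erased windows over introns and exons of both genes. Its levels were 92.4, 91.6 and 90.3% in Conventional and 3.6, 3.44 and 3.35% in Reset. In the middle of the run, 6 to 7 kb from its start, all 3 Reset libraries were at 0%, with 95.5, 95.7 and 100% in Conventional. The window 10 to 11 kb from the start was not erased, at 20.5 to 25% in Reset, and levels from 3 to 10 kb before the run were 28 to 57.9%. The run on chromosome 11 had 87.2 to 87.5% in Conventional and 4.13 to 5.92% in Reset over 10 erased windows.

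**Figure D4:**
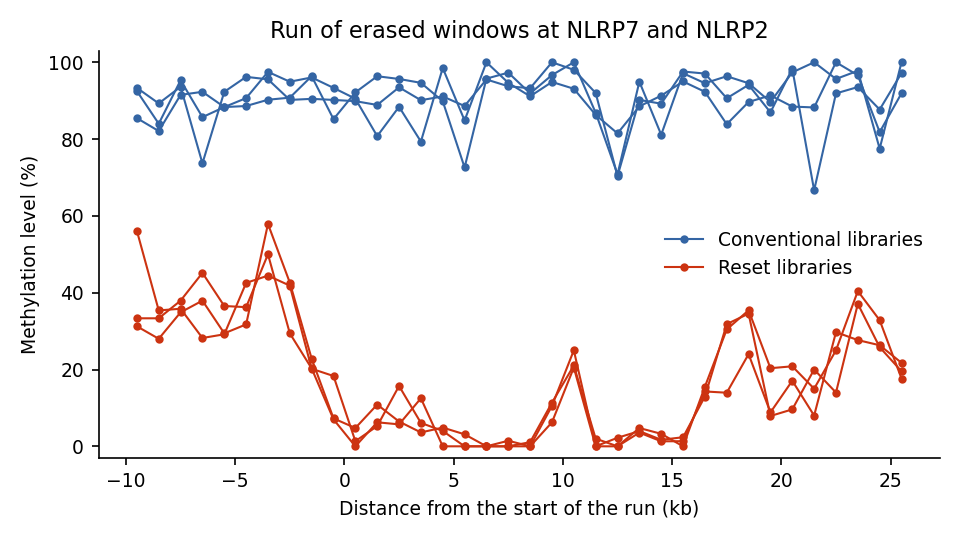
Methylation level of successive 1-kb windows (y axis, %) by distance in kb from the start of the run at NLRP7 and NLRP2 (x axis), 1 line per library. Conventional libraries (blue) stay mostly above 70%, and Reset libraries (red) drop over 16 kb, to at most 15.7% in every window of the run but that at 10 kb, which stays at 20.5 to 25%.

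Beyond the 10 longest, and chosen after their values had been seen, were runs over 2 groups of noncoding genes and at FAM234A and REST. A run of 8 erased windows at chr19:54285001-54294000 held MIR371A, MIR372 and MIR373, a microRNA cluster known for expression in human embryonic stem cells. It had 92.5, 93.1 and 92.9% in Conventional and 2.65, 3.18 and 1.39% in Reset. The window of MIR372 and MIR373 went from 98.1% to 1.63% and that of MIR371A from 90.6% to 3.21%. The mature sequences are shown because the 3p arms of MIR372 and MIR373 share a seed (bases 2 to 8, in capitals; RefSeq, GRCh38.p14 table).
hsa-miR-371a-3p: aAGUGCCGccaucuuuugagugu
hsa-miR-372-3p: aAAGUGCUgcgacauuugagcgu
hsa-miR-373-3p: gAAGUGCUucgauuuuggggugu
Of 736 microRNA genes in windows over 80%, 26 (3.53%) lay in an erased window, near the share of all windows. A run of 7 erased windows lay in the annotated span of MEG3, a maternally expressed imprinted noncoding gene (chr14:101272001-101279000). It had 94.4, 93.9 and 92.2% in Conventional and 5.81, 3.96 and 6% in Reset. The run in FAM234A (chr16:302001-309000, 7 windows) went from 94.7 to 98.1% in Conventional to 4.06 to 6.46% in Reset. The run at REST, which encodes a repressor of neuronal genes, held 6 windows (chr4:57777001-57784000) and had 92.5 to 95.3% and 2.3 to 5.03%.

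The largest single falls were of 97.5 to 98.5 points. The first was a window near the end of chromosome 4 (chr4:11001-12000) with 148 CpGs, 98.1, 99.7 and 98.6% in Conventional and 0, 0 and 0.885% in Reset. An intron of AMBRA1, a regulator of autophagy (chr11:46613001-46614000), had 95.9, 98.8 and 100% in Conventional and 0% in all 3 Reset libraries. An intron of ILRUN (chr6:34661001-34662000) was at 100% in every Conventional library and at 0, 2.33 and 2.22% in Reset. The start of ZSCAN1 (chr19:58545001-58546000), a SCAN domain zinc finger gene, had 97.9, 97.9 and 97.8% and then 0, 0.5 and 0%. The remaining 6 lay at CARD18, at 3 noncoding loci (ENSG00000251574, LINC02583 and LINC02281) and between genes on chromosomes 2 and 7. The 10 windows did not overlap between groups in any library, which the selection fixes.

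At genes, 461 of 5187 coding promoters with a window over 80% held an erased window (8.89%), and 369 of 7002 lncRNA promoters did (5.27%). A promoter was taken as 1000 bp upstream to 500 bp downstream of the transcript start, and was said to hold a window wherever that window overlapped it by any length, so some of the windows counted lay mostly outside it. Of coding gene bodies 21.5% held an erased window. Longer genes span more windows, and this share was not adjusted for gene length. Where the start itself lay in a window over 80%, that window was erased for 119 of 1661 coding genes (7.16%). Among CpG-rich windows, 13.6% of those at coding promoters were erased, against 3.18% elsewhere. The gene lists below were chosen with earlier results of these data known, and were read against these shares without a test.

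Of the naive pluripotency list, 9 of 16 genes with a testable promoter held an erased window, against the 8.89% of all coding promoters. Of these, 4 lie close together on chromosome 6 and encode proteins of the oocyte and early embryo: KHDC1L, DPPA5, KHDC3L and OOEP. As neighbours these 4 are not independent of each other in the count. KHDC3L and OOEP encode subunits of the subcortical maternal complex. The start window of DPPA5 (chr6:74063001-74064000, 54 CpGs) had 98.9, 98.3 and 89.2% in Conventional and 0, 0.602 and 0.746% in Reset. The start window of KHDC1L (chr6:73935001-73936000) had 96.5% ± 3.18 in Conventional and 5.68% ± 4.64 in Reset, with 1 Reset library above 10%, and the window next to it had 97.1% ± 4.35 and no methylated call in Reset. KHDC3L (chr6:74072001-74073000) had 94.8, 93.5 and 98.5% and then 2, 2.34 and 1.75%. OOEP (chr6:74079001-74080000) had 95.8% ± 2.26 and 5.7% ± 1.53 (SD, n = 3).

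DPPA3, a maternal factor known to limit maintenance methylation, went from 88.9% ± 4.47 to 2% ± 1.8 at its start (chr12:7864001-7865000). DNMT3L, the catalytically inactive cofactor of the de novo methyltransferases, went from 85.6% ± 4.78 to 2.21% ± 0.949 (chr21:45681001-45682000). TRIM60 had 96.7% ± 3.11 and 0.235% ± 0.407 at its start (chr4:165953001-165954000). ARGFX, a homeobox gene of the cleavage embryo, stood just under the threshold at 9.36% ± 0.263, and ZNF729 had 8.53% ± 6.07, with 1 Reset library above 10%. In the bodies of the list, 16 of 28 genes held an erased window, among them NANOG, KLF5, TFCP2L1, ESRRB and GDF3, against 21.5% of all coding bodies. The 16 include all 9 genes with an erased window at the promoter, so the counts overlap.

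Of the core pluripotency list 1 of 4 testable promoters held an erased window, that of DPPA2, at 93% ± 3.43 and 9.87% ± 2.14. Of the list of germ cell and meiosis genes, 4 of 36 did, which is near the background of 8.89%. These were BRDT, a testis bromodomain protein, SYCP2 and SYCP3, parts of the synaptonemal complex, and HORMAD2, a meiotic checkpoint protein. BRDT had 94.1, 92.3 and 96.9% and then 0, 3.78 and 1.57% at its start (chr1:92414001-92415000). SYCP3 had 93.6% ± 2.66 and 6.25% ± 5.15 at its start (chr12:102133001-102134000), with Reset replicate 3 at 12.1%. The promoter window beside it (chr12:102132001-102133000) had 97.9% ± 2.24 and 4.14% ± 0.306. SYCP2 was less complete, at 9.47% ± 4.48 in Reset from 80.8% ± 7.06. The loss was uneven within this SYCP2 window. A stretch of it with 27 CpGs had 100 of 104 methylated calls in Conventional and still 27 of 61 (44.3%) in Reset.

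Of the DNA methylation machinery list, 4 of 6 testable promoters overlapped an erased window: DNMT3L, MBD2, SETDB1 and ZFP57. ZFP57, a zinc finger protein that maintains methylation at imprinted regions, went from 96.5% ± 1.15 to 4.15% ± 1.51 at its start (chr6:29648001-29649000). The windows of MBD2, a reader of methylated CpGs, and of SETDB1, a histone H3 lysine 9 methyltransferase, did not hold the start, overlapped only the upstream end of the promoter, and went to 2.04% ± 0.393 and 2.01% ± 0.527. In the bodies of this list 8 of 18 genes held an erased window, TET1, TET2, TET3 and DNMT3A among them, against 21.5% of all coding bodies. DNMT3L and ZFP57 are counted again there.

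Of the imprinted list 3 of 7 testable promoters held an erased window, and PEG3 and ZIM2 share one (chr19:57351001-57352000). PEG3 is known for methylation of the maternal copy alone in somatic cells. A window methylated on 1 copy alone would lie under 80% in Conventional and so could not be counted here. The shared window had 97.4, 92 and 96.5% in Conventional and 1.18, 0.806 and 0.725% in Reset. MKRN3 had 95.1% ± 3 and no methylated call in Reset at its start (chr15:23810001-23811000). None of the 8 trophoblast, 4 lineage and primed state, and 1 MAPK and FGF promoters that could be tested held an erased window, and few promoters of these lists were over 80% in Conventional. In bodies the counts were 2 of 20 for the trophoblast list and 5 of 19 for the lineage and primed state list, with FGF5, GATA6 and ZIC1 in the latter. They were 5 of 14 for the core pluripotency list, 6 of 38 (15.8%) for the germ cell list and 5 of 25 (20%) for the imprinted list, the last 2 below the 21.5% of all coding bodies.

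**Figure D5:**
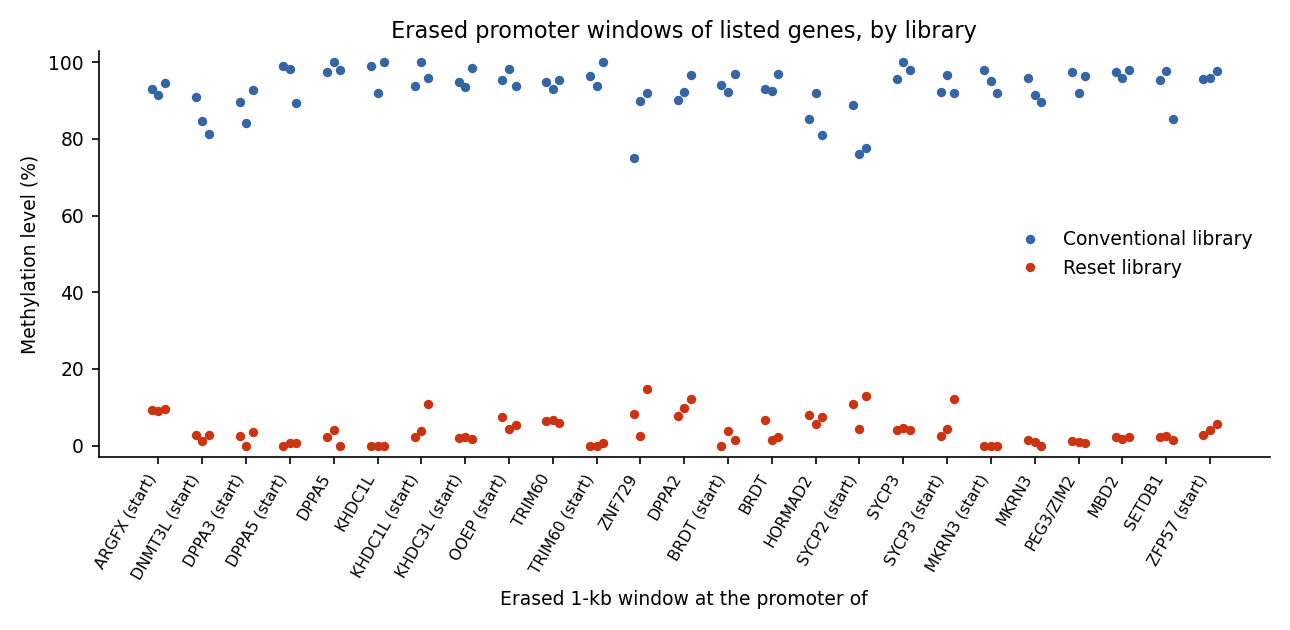
Methylation level (y axis, %) in each of the 6 libraries for the erased promoter windows of the listed genes (x axis; "start" marks the window with the transcript start). All Conventional libraries (blue) lie at 75% or above and all Reset libraries (red) below 15%, a separation that the selection fixes.

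Zinc finger genes of the ZNF, ZSCAN and ZFP names, a family chosen after its values had been seen, stood out by count. Of 179 with a testable promoter 50 held an erased window (27.9%), and of 43 whose start lay in a window over 80% that window was erased in 30, against 7.16% of all coding starts. The 30 had a median of 46 CpGs and a median Reset level of 1.13%, and 22 lay on chromosome 19, where KRAB zinc finger genes, known repressors of transposable elements, are clustered. ZNF257 (chr19:22235001-22236000) had 82.1% ± 6.77 in Conventional and no methylated call in Reset, ZNF528 (chr19:52901001-52902000) 92.2% ± 1.02 and 0.231% ± 0.401, and ZNF667 (chr19:56988001-56989000) 89% ± 3.42 and 0.353% ± 0.612. Reads of near-identical zinc finger genes could be placed at the wrong copy, which was not tested. Of the protocadherin clusters 9 of 33 promoters held an erased window, of ribosomal protein genes 6 of 29, of olfactory receptor genes 3 of 71 and of keratin-associated protein genes 3 of 34, against 8.89% of all coding promoters. The shares of the olfactory receptor (4.23%) and keratin-associated protein genes (8.82%) were at or below that background. These families were also chosen after their values had been seen, and genes of a cluster are not independent of each other.

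Shared sequence was looked for in strings of 20 bases, kept only if at least 15 erased windows shared them and over 20% of the windows over 80% that held them were erased, so the shares erased below are partly set by that choice. Of the erased windows 571 (4.58%) held one of 8 such strings, 2 of which were forms of the GGAAT repeat. The next lines give the leading GGAAT form and 3 others, each of which was shared by only a small part of the erased windows.
GGAAT form: aatggaatcgaatggaatca
string 2: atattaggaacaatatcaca
string 3: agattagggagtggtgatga
string 7: caaaaagccgcggcggcggg
The GGAAT form was in 167 windows over 80%, of which 165 were erased. String 7 was in 28, of which 26 were erased, all within 5 Mb of a centromeric gap, with a median of 90 CpGs. String 2 was in 211 windows over 80% (85 erased) and 687 times in the autosomes and chromosome X together, and string 3 in 169 (57 erased) and 2281 times. The erased windows with strings 2 and 3 were on 13 and 17 autosomes, so these are dispersed repeats, whose class was not analysed here.

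Short motifs, searched on both strands, were compared at equal GC content since the erased windows were poorer in GC. The POU octamer ATGCAAAT was in 8.61% of erased and 5.56% of the other windows, and in 7.49% of the others when weighted to the GC content of the erased ones. The GATA letters AGATAA were in 49.4% and 40.3%, and in 49.1% after weighting. The KLF letters GGGTGTGG were in 11.2% and 13.9% (10.7% weighted), and the AP-2 letters GCCNNNGGC in 13.8% and 21.7% (15% weighted). The ESRRB letters TCAAGGTCA were in 1.16% of erased and 1.47% of the other windows (1.4% weighted). The TEAD letters GGAATG, which overlap the GGAAT repeat, were in 40.4% and 40.5% (39.8% weighted). The E-box CACGTG was in 11.1% and 15.8% (13.3% weighted), and the SOX letters ACAATG were in 41.9% and 37.5% (42.8% weighted). Of the 8 motifs the octamer alone was more frequent in erased windows by over 1 point after weighting, and AP-2 and the E-box were less frequent by over 1 point.

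Across chromosomes the share erased was 1.28% on chromosome 22, 1.85% on chromosome 17 and 2.14% on chromosome 15, and 3.97% on chromosome 8 and 3.98% on chromosome 4. Chromosome 19 had 3.28% although its windows had one of the highest median Reset levels (40%), and chromosomes 4 and 8 had 37.1% and 36.4%. Within 5 Mb of the largest assembly gap of each chromosome, which marks the centromere on most, 4.81% of windows were erased, within 1 Mb of a chromosome end 1.8%, and elsewhere 2.72%. The erased windows with the 2 GGAAT strings (165 and 155 windows) all lay within 5 Mb of such a gap. The share there was not computed without GGAAT-rich windows.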

How the data were processed

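Whole-genome bisulfite libraries of H9 cells, 3 Conventional and 3 Reset, were analysed, which the labels tell apart by condition and the study describes as biological replicates. The authors trimmed reads with Trim Galore, aligned them to GRCh37 with Bismark and Bowtie2, and deposited, for every covered CpG cytosine, the raw count of methylated calls and that of unmethylated ones. The submitters' processing notes give Bismark 0.9.0, whereas the study's methods name another release. Removal of duplicate reads is not stated in the sources used here, so calls can include PCR copies.

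Positions were checked against the GRCh37 sequence (99.8% lay at a CpG), counted from 0 in the deposited counts and from 1 here, and calls of both strands were summed in windows of 1000 bp. Genes came from GENCODE 44 in its GRCh37 version, and microRNA sequences from RefSeq. Repeats were not annotated here. Windows, flanks and depth were computed in Python 3.11.15 with numpy 2.4.6 and scipy 1.17.1. Libraries were compared with two-sided exact permutation tests, which with 3 against 3 cannot go below 0.1. Windows were never treated as replicates.

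The genes and windows named were the 10 largest falls, the 10 longest runs, erased windows at promoters of 8 gene lists, those at the threshold and the chromosomes, with additions stated in the text. The gene bodies of 1 list, and of the families chosen after their values had been seen, are not reported here. The members and lists were chosen with earlier results of these data known. Deviations of same-numbered Conventional and Reset libraries were uncorrelated (between -0.00194 and 0.00142 over all pairs), so no pairing by number was seen. The level of a single window is uncertain by several points, so this check cannot exclude that same-numbered libraries were prepared together. Alternatives covered minimum calls, thresholds, the window grid, pooling, the sequence context of positions, high coverage, GGAAT-rich windows, flank choices and each library left out. The choice of windows, the flanks and the depth ratio were tested on simulated data.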

Additional observations from a re-analysis of the deposited data

How the results depend on the processing

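The number of erased windows depended on the rule. It was 43700 with at least 20 calls and 2997 with at least 50, 3500 with Reset under 5% and 27523 with Reset under 15%, 7323 with Conventional over 90%, and 5101 when every single library had to pass. It ranged from 12663 to 19239 with each library left out in turn, the highest without Reset replicate 3, and stayed within 1.5 times the main count in the other 10 settings (12116 to 16125). Erased windows at coding promoters made up 3.81% of members, 1.38% with at least 20 calls and 10.1% with at least 50, and 0.877%, 2.28% and 11.2% of the CpG-poor, middle and CpG-rich members, so that this share rests on the minimum of calls. The flank difference kept its sign in all 14 alternatives (-10.3 to -1.22 points, exact permutation or sign-flip p 0.1 to 0.25), and was -10.3 to -7.79 with each library left out. It was -4.31 points when erased windows were kept among flanks with at least 30 calls, a setting chosen after seeing the data. The Reset-minus-Conventional difference of the depth ratios was 0.0588, -0.0684 (reversed) with windows chosen at 10 or more calls (148707 windows) and 0.0187 to 0.0722 with each library left out. With the replicate block, in which libraries of the same number were compared, the flank difference was -7.85 points and the depth difference 0.0588 (exact sign-flip p = 0.25 for each, the smallest that 3 pairs allow). With 3 libraries a group no test could pass 0.05. At a median of 45 to 58 calls per window and library, the level of a single window in a single library is uncertain by several points.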
